A study of Mus musculus with 7 samples.

Results

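The genes described here encode the machinery of vesicle traffic between the endoplasmic reticulum (ER) and the Golgi, together with SNARE proteins of later compartments. They are 52 genes of 53458 in the tables, chosen by name and function and not by any measured value. They comprise 14 genes of the COPII coat and its assembly, 5 ER exit cargo receptors, 10 genes of the COPI coat and Arf1, 6 genes of cargo retrieval and the p24 family, 7 R-SNAREs, 4 Qa-SNAREs and 6 Qb-, Qc- or Qbc-SNAREs. RNA came from LT-HSCs, the long-term haematopoietic stem cells that sustain blood formation, which were sorted by surface markers from the marrow of C57/BL6 mice. The mice were aged, by an unstated number of months. The 4 wild-type (WT) mice were Srp72+/+ and the 3 others were heterozygous, Srp72+/- (HET), with 1 library per mouse and no treatment named for either group. Which part of Srp72 was altered is not stated in the labels.

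Proteins made at the ER leave it in vesicles shaped by the COPII coat: the GTPase SAR1, switched on by PREB, recruits the inner SEC23-SEC24 layer, which picks cargo, and the outer SEC13-SEC31 layer. The COPI coat, recruited by ARF1, carries escaped ER proteins and cargo receptors back from the Golgi, and KDEL receptors catch soluble ER residents for that return. SNARE proteins on vesicle and target membranes zip together, each contributing an R, Qa, Qb or Qc helix, and so drive fusion. Srp72, the gene altered in the heterozygous mice, encodes a subunit of the signal recognition particle, which delivers nascent secretory proteins to the ER at the step before this traffic begins.

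None of the 52 vesicle traffic genes differed between the genotypes past a false discovery rate of 0.05 in edgeR's quasi-likelihood test, and none did in DESeq2. Across the 20314 genes tested the same held for edgeR (0% called), while DESeq2 called 9, none of them a member. All 52 members passed the filter on low counts. At an unadjusted p under 0.05, edgeR counted 2 of 52 members, Cnih4 with a lower and Vamp2 with a higher value in HET, beside 1.80% of all genes tested. Fitted values were higher in HET for 15 members and lower for 37, so 28.8% were higher beside 49.3% of all genes, and the median log2 fold change was -0.14 beside -0.007 for all genes. The size of these counts and of the median depended on single libraries. Without WT 2, 24 of 52 members were higher and the median was -0.03, beside 53.1% and 0.04 for all genes. Without HET 3, 5 of 52 were higher and the median was -0.27, and the share over all genes without HET 3 is not given.

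Depth ranged from 18054322 to 35247472 estimated reads per library. A floor of 3 counts corresponded to 0.0908 to 0.191 CPM, the read count of a gene scaled for depth. WT 2 stood apart, and HET 1 came next to it in several marker sums. In WT 2 the 10 stem cell markers summed to 54.4 CPM, against 886 (HET 1) to 1912 CPM in the other 6 libraries, and Procr, a surface marker of stem cells, lay under the floor there. All 10 were lowest in WT 2. The 8 neutrophil markers summed to 36078 CPM in WT 2 and to 118 to 11522 CPM (HET 1) elsewhere, the 8 erythroid markers to 8050 and 386 to 6018 CPM (HET 1), and the 8 B cell markers to 10276 and 56.7 to 4228 CPM (HET 1). The 6 plasma cell markers summed to 678 CPM in WT 2 and 77.7 to 320 CPM elsewhere, the 6 T cell markers to 18.4 and 3.64 to 10.8 CPM, and the 6 megakaryocyte markers to 36.8 and 337 to 1165 CPM. WT 2 was the highest library for 29 of the 52 members (22.8% of all genes were highest there), including 5 of 6 retrieval and p24 genes, 4 of 5 cargo receptors and 6 of 10 COPI genes. Among the HET libraries, HET 3 was the highest of the 7 for 11 members and the other two for 0. In bulk RNA, fewer cells of a type and less RNA per cell cannot be told apart, and the part of mature cells in the values below was not tested. Srp72 itself measured 99.6, 137, 103 and 88.4 CPM in WT 1 to WT 4, against 71.9, 45.7 and 110 CPM in HET 1 to 3. The groups overlapped, and the difference did not pass the test (log2 fold change -0.50, standard error (SE) 0.32, edgeR adjusted p = 0.9998; two-sided exact permutation p = 0.2, where 35 splits allow none below 0.0286). The Srp72 value was -0.87 without HET 3 (edgeR unadjusted p = 0.0223, adjusted p = 0.99995) and -0.25 without HET 2.

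**Figure D1:**
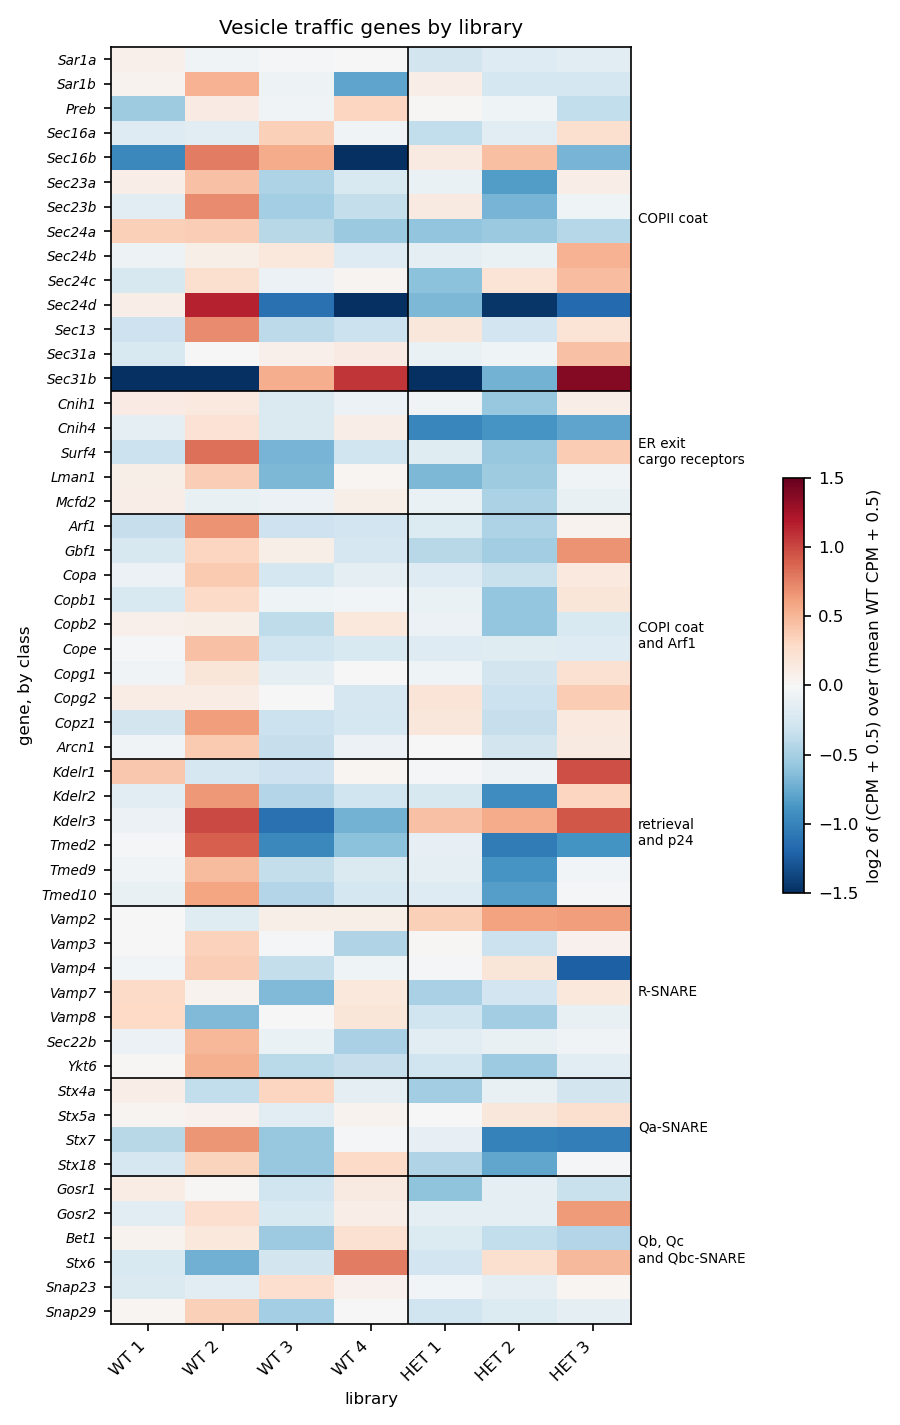
Log2 of each library's CPM + 0.5 over the mean WT CPM + 0.5 for the 52 members, grouped by class; colours are cut at -1.5 and 1.5. The WT 2 column is the reddest, being the highest library for 29 members, and HET 2 is the lowest for 18.

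Summed over all members, the WT and HET libraries overlapped. The 52 members summed to 3102, 4119, 2856 and 3068 CPM in WT 1 to WT 4, against 2910, 2578 and 3488 CPM in HET 1 to 3. WT 2 was the highest and HET 2 the lowest. Where 2 values with ± are given for a gene below, they are the means and SDs of WT (n = 4) and HET (n = 3), in that order. Sums by class stood between 80.3% (retrieval and p24) and 97.7% (Qb, Qc and Qbc-SNAREs) of the WT mean in HET. Without WT 2 the retrieval and p24 sum in HET was 99.2% of the WT mean, and the sum of all members 99.4%. The Qa-SNARE sum was 189 ± 23.5 CPM in WT (SD, n = 4) against 157 ± 6.4 CPM in HET (SD, n = 3), or 82.9%, and was the sum whose groups did not overlap, at 170 to 222 against 152 to 164 CPM. WT 2 held the highest Qa-SNARE sum, and without it the HET sum was 88.1% of the WT mean. No class sum was tested. The COPI sum was 1048 ± 226 CPM in WT, against 978 ± 179 CPM in HET, and the WT mean without WT 2 was 936 CPM. The COPII sum was 736 ± 71.9 CPM in WT, against 697 ± 110 CPM in HET.

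Levels of different genes can be compared in TPM, the deposited values that divide by length, here summed over the protein-coding transcripts of each gene and averaged over the 7 libraries. The most abundant member was Vamp8, a SNARE of late endosomes and regulated secretion in blood cells, at 68.2 TPM (31.4 to 92.0). Arf1, the GTPase that recruits COPI, followed at 44.6 TPM (38.9 to 51.5), and its range lay within that of Vamp8. Sec24c at 29.9, Sar1a at 27.1, Sec31a at 26.2, Cope at 25.2 and Surf4 at 23.3 TPM came next, with ranges that overlapped one another. At the other end stood Sec16b at 0.209, Kdelr3 at 0.320 and Sec31b at 0.564 TPM, paralogs of the abundant Sec16a, Kdelr2 and Sec31a. Gbf1, which activates Arf1 at the Golgi, had 0.706 TPM in its protein-coding transcript, which held between 0 and 39.2% of the gene's estimated reads.

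Which transcript carried a gene's reads varied among the members. The transcript with the highest mean TPM was protein coding in 38 of 52 members, a retained intron in 6 and another noncoding or decay-prone type in 8. By reads, the leading transcript was protein coding in 48 of 52, since short transcripts weigh more in TPM than in reads. Protein-coding transcripts held a median of 70.5% of a member's TPM, and under 50% in 15 members. For Copg2, which encodes a gamma subunit of COPI, the leading transcript by TPM had an effective length of only 10 bases, and TPM divide by that length. The shares of paralogs given below were therefore also computed from read counts and from protein-coding transcripts alone.

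Among the 14 COPII genes, fitted values were higher in HET for 6 and lower for 8 (median log2 fold change -0.10), and 7 of 14 were higher without WT 2. Sar1a, the SAR1 GTPase gene with the higher TPM (ENSMUSG00000020088, chromosome 10, 61680299 to 61693297, plus strand, GRCm38), measured 94.1, 85.9, 87.9 and 88.4 CPM in WT 1 to WT 4. In HET 1 to 3 it measured 73.8, 77.8 and 79.5 CPM. Every HET library lay below every WT library, as held with lower values in HET for 2 of 52 members (Sar1a and Cnih4) beside 1.49% of all genes. The difference was small (log2 fold change -0.21, SE 0.18, 95% confidence interval -0.62 to 0.20) and did not pass edgeR's quasi-likelihood test (adjusted p = 0.9998, unadjusted p = 0.272). Sar1a was singled out after its values were seen. Sar1b measured 21.0 ± 7.5 CPM in WT (SD, n = 4) against 19.1 ± 3.0 CPM in HET (SD, n = 3), and Preb, the exchange factor that loads SAR1 with GTP, 65.8 ± 15.7 and 59.96 ± 8.2 CPM.

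The SEC24 proteins bind cargo and set which proteins enter a vesicle. Sec24a (ENSMUSG00000036391, chromosome 11, 51692264 to 51763634, minus strand) measured 72.2, 72.7, 41.8 and 37.9 CPM in WT 1 to WT 4, against 37.2, 37.9 and 41.7 CPM in HET 1 to 3. WT 1 and WT 2 were high, WT 3 and WT 4 lay close to the HET libraries, and the groups overlapped (log2 fold change -0.53, SE 0.30, unadjusted p = 0.113 in edgeR's quasi-likelihood test). Sec24d (ENSMUSG00000039234, chromosome 3, 123267455 to 123365641, plus strand) measured 21.7, 45.7, 9.06 and 4.63 CPM in WT, against 12.6, 7.05 and 8.76 CPM in HET. The WT libraries alone spanned the full range, with WT 2 highest and WT 4 lowest, and the log2 fold change of -1.10 (SE 0.72) was -0.31 without WT 2. Sec24b measured 71.0 ± 7.7 and 77.8 ± 21.4 CPM and Sec24c 113 ± 15.9 and 120 ± 42.0 CPM in WT and HET, with the highest value of both in HET 3.

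The other COPII genes showed differences smaller than their spread. Sec13 measured 19.9 ± 8.7 CPM in WT, against 20.6 ± 3.8 CPM in HET, and Sec31a, its partner in the outer coat, 94.99 ± 9.9 and 103 ± 22.6 CPM. Sec23a measured 27.8 ± 7.8 and 23.6 ± 7.4 CPM and Sec23b 27.6 ± 12.0 and 24.5 ± 7.0 CPM. Sec16a, the scaffold of ER exit sites, measured 123 ± 23.4 and 117 ± 25.4 CPM. The minor paralogs Sec16b, at 0.22 to 3.39 CPM, and Sec31b, at 0.26 to 13.3 CPM, varied over a wide range within both groups.

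All 5 cargo receptors had lower fitted values in HET (median log2 fold change -0.22), and without WT 2 1 of 5 was higher. Cnih4 (ENSMUSG00000062169, chromosome 1, 181144693 to 181168994, plus strand), a cornichon protein known to help receptors leave the ER, measured 30.1, 38.2, 28.2 and 35.3 CPM in WT 1 to WT 4. In HET 1 to 3 it measured 16.5, 17.6 and 18.8 CPM. The groups were far apart for their spread: the lowest WT library stood at 28.2 and the highest HET library at 18.8 CPM. Its level in HET was 0.535 of WT (95% confidence interval 0.365 to 0.785), or -0.90 in log2 (SE 0.24). That gave an unadjusted p = 0.00527 and an adjusted p = 0.9998 over all genes in edgeR's quasi-likelihood test, and an adjusted p = 0.234 in DESeq2. Leaving out any 1 library kept the log2 fold change between -0.99 and -0.82, and without WT 2 it was -0.82.

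The reads of Cnih4 were divided among 5 annotated transcripts, and not alike in each library. Cnih4-204, a long protein-coding transcript, held 18.05, 10.6, 16.3 and 19.5 CPM in WT 1 to WT 4, against 9.11, 10.4 and 0 CPM in HET 1 to 3. In HET 3 the reads were assigned to Cnih4-203, of nearly the same length, at 7.89 CPM, a transcript listed at 0 in all other libraries except WT 2 (8.68 CPM). The sum of both long transcripts was 18.05, 19.3, 16.3 and 19.5 CPM in WT, against 9.11, 10.4 and 7.89 CPM in HET, without overlap. Cnih4-201, a short transcript annotated without a coding sequence, held 6.66, 16.0, 6.33 and 2.58 CPM in WT, against 7.35, 6.34 and 4.21 CPM in HET, and the groups overlapped.

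**Figure D2:**
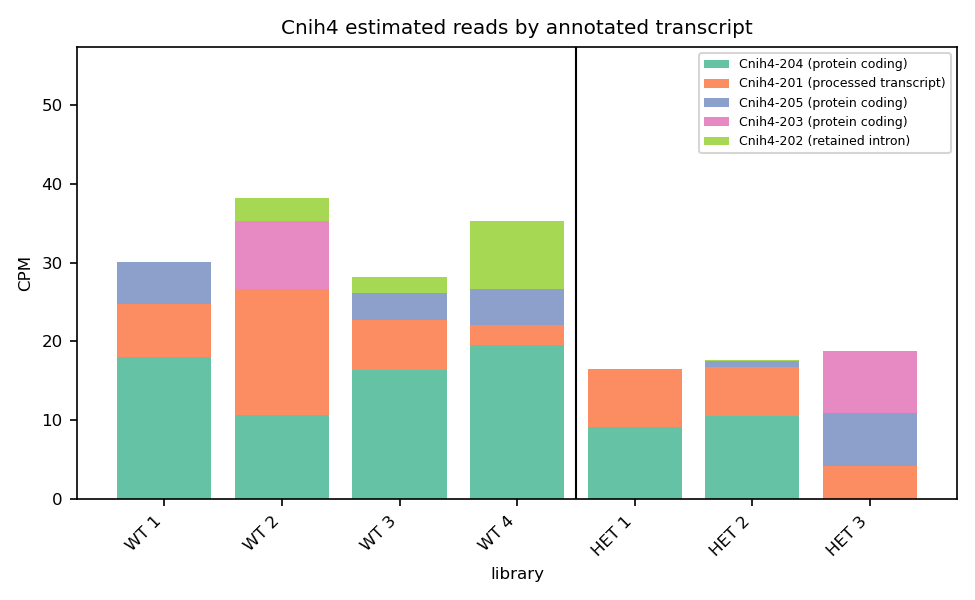
Estimated reads of Cnih4 in CPM, stacked by annotated transcript, in each library. Each bar's full height is the gene's level, 28.2 to 38.2 CPM in WT, against 16.5 to 18.8 CPM in HET, and the make-up of the bars differs within both groups.

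The remaining cargo receptors overlapped between the groups. Lman1, the lectin that carries clotting factors and other glycoproteins out of the ER, measured 88.3 ± 24.3 CPM in WT (SD, n = 4) against 66.9 ± 16.0 CPM in HET (SD, n = 3), and Mcfd2, its partner, 33.8 ± 2.8 and 29.0 ± 4.2 CPM. Surf4, a receptor for soluble secreted proteins, measured 86.1 ± 45.2 and 82.2 ± 27.9 CPM, with WT 2 at 153 CPM. Cnih1, the paralog of Cnih4, measured 31.6, 32.2, 24.9 and 27.2 CPM in WT 1 to WT 4, against 28.0, 19.3 and 31.1 CPM in HET 1 to 3. Its groups overlapped, with a log2 fold change of -0.15 (SE 0.26).

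**Figure D3:**
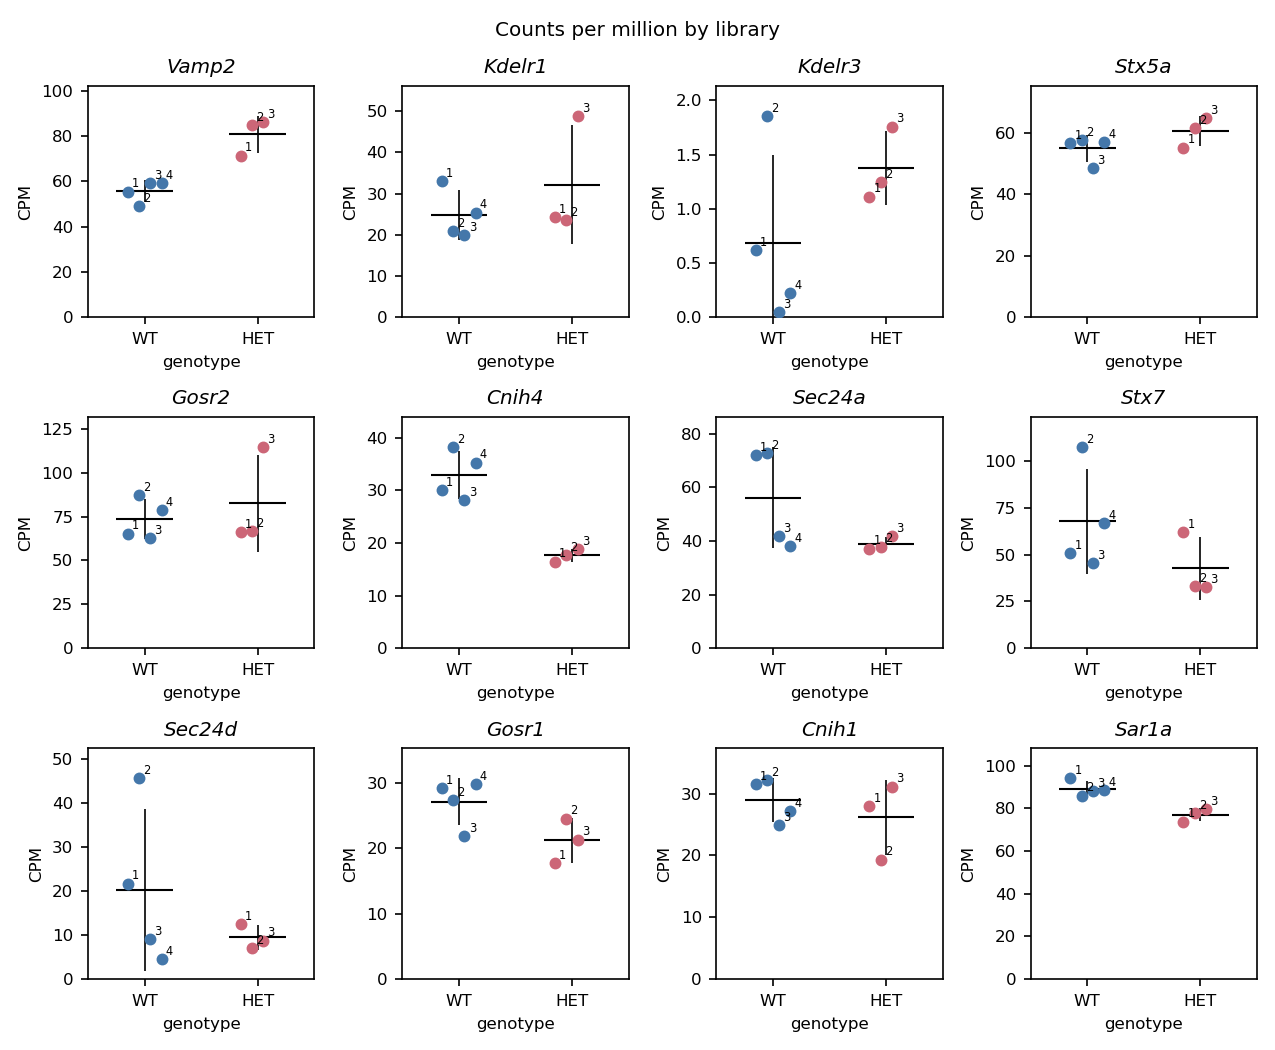
CPM by library for 12 members (points, numbered by replicate), with group means (horizontal lines) and SDs (vertical lines), on axes that start at 0. Cnih4, Vamp2 and Sar1a have groups that do not overlap; in Sec24d and Kdelr3 the spread among WT libraries covers all HET values.

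Of the 10 genes of the COPI coat and Arf1, 3 were fitted higher in HET and 7 lower, all with log2 fold changes between -0.29 and 0.11, and 7 of 10 were higher without WT 2. Copa, the alpha subunit, measured 196 ± 41.9 CPM in WT, against 182 ± 32.4 CPM in HET, Copb1 93.2 ± 14.3 and 84.9 ± 21.9 CPM, and Copb2 101 ± 15.9 and 82.6 ± 13.8 CPM. Arcn1, the delta subunit, measured 141 ± 31.2 and 137 ± 19.3 CPM, Cope 45.8 ± 11.4 and 40.1 ± 0.2 CPM, and Copz1 79.0 ± 28.9 and 79.6 ± 15.2 CPM. The gamma subunit genes Copg1, at 91.0 ± 8.9 and 89.5 ± 15.7 CPM, and Copg2, at 46.5 ± 5.4 and 50.3 ± 12.2 CPM, overlapped between the groups. Copg1 made up 66.2% ± 3.1 (SD, n = 4) of the Copg reads in WT and 64.2% ± 2.6 (SD, n = 3) in HET.

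Arf1 measured 150, 305, 154 and 157 CPM in WT 1 to WT 4, against 167, 139 and 198 CPM in HET 1 to 3. WT 2 was high, and the other WT libraries lay close to one another and among the HET values. The log2 fold change was -0.19 with all libraries and 0.13 without WT 2, both within the standard error of 0.31 for the full set. Gbf1 measured 63.0 ± 12.4 and 64.0 ± 31.9 CPM, with 101 CPM in HET 3.

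KDEL receptors return ER chaperones, and p24 proteins are abundant adaptors that cycle with both coats. Kdelr1 (ENSMUSG00000002778, chromosome 7, 45872772 to 45883732, plus strand) measured 33.0, 20.8, 20.0 and 25.4 CPM in WT, against 24.2, 23.5 and 48.8 CPM in HET. HET 3 was above all other libraries and the groups overlapped, and the log2 fold change of 0.38 (SE 0.35) was -0.06 without that library. Kdelr2 measured 79.4 ± 30.5 CPM in WT (SD, n = 4) against 69.4 ± 29.3 CPM in HET (SD, n = 3). Kdelr3 measured 0.62, 1.85, 0.048 and 0.22 CPM in WT, against 1.11, 1.25 and 1.76 CPM in HET. WT 3 lay under the floor of 3 counts and WT 2 above every other library, and the fitted log2 fold change was 1.02 (SE 0.98). Without WT 2 the groups of Kdelr3 did not overlap and the value was 2.22 (unadjusted p = 0.0323, adjusted p = 0.977 in edgeR's quasi-likelihood test).

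The values of the p24 genes depended on single libraries, WT 2 among them. Tmed2 measured 123, 234, 63.9 and 82.2 CPM in WT 1 to WT 4, against 116, 60.6 and 67.1 CPM in HET 1 to 3, with a log2 fold change of -0.63 (SE 0.47) that was -0.14 without WT 2. Tmed10 measured 171 ± 58.9 and 138 ± 37.8 CPM, and its log2 fold change went from -0.31 to -0.04 without WT 2. Tmed9 measured 41.2 ± 11.4 and 33.3 ± 9.7 CPM, with log2 fold changes of -0.31 and -0.10. In WT 2 Xbp1, a transcription factor that raises the secretory machinery, stood at 286 CPM against 73.1 to 147 CPM in the other libraries, and the plasma cell gene Jchain at 349 CPM against 1.27 to 196 CPM. Irf4 and Prdm1, of the same plasma cell list, were also highest in WT 2. Sdc1 and Mzb1 were highest in HET 1, at 7.84 and 3.07 CPM, against 3.96 and 2.69 CPM in WT 2. The part of plasma cells or of Xbp1 in the p24 values was not tested.

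Of the 7 R-SNAREs, 1 was fitted higher in HET and 6 lower (median log2 fold change -0.19), and without WT 2 3 of 7 were higher (median -0.09). The higher one was Vamp2 (ENSMUSG00000020894, chromosome 11, 69088490 to 69092384, plus strand), a vesicle SNARE known from regulated secretion. It measured 55.5, 49.0, 59.3 and 59.2 CPM in WT 1 to WT 4, against 71.4, 84.7 and 86.0 CPM in HET 1 to 3. All 3 HET libraries lay above all 4 WT libraries, and Vamp2 was the 1 member of 52 with this order beside 2.08% of all genes. The level in HET was 1.448 of WT (95% confidence interval 1.06 to 1.97), or 0.53 in log2 (SE 0.19), and 0.48 without WT 2. With the length offset the groups of Vamp2 and of Sar1a overlapped, and the Vamp2 value was 0.39. The unadjusted p = 0.0240 became an adjusted p = 0.9998 over all genes in edgeR's quasi-likelihood test. Its main protein-coding transcript, Vamp2-201, followed the gene, with 41.1, 37.6, 38.4 and 50.2 CPM in WT, against 57.0, 59.3 and 69.2 CPM in HET.

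The R-SNAREs of the ER to Golgi step were Sec22b, at 35.5 ± 10.6 CPM in WT (SD, n = 4) against 32.9 ± 1.4 CPM in HET (SD, n = 3), and Ykt6, a SNARE held on the membrane by lipid groups, at 20.2 ± 6.6 and 16.0 ± 2.2 CPM. Vamp8 measured 138, 70.6, 113 and 128 CPM in WT, against 91.2, 78.0 and 104 CPM in HET. WT 2 was here the lowest of the libraries, and the log2 fold change of -0.31 was -0.47 without it, with groups that then did not overlap, as held for 7 of 52 members and 10.1% of all genes without WT 2. Vamp3, of recycling endosomes, measured 71.6 ± 15.9 and 68.2 ± 9.5 CPM, Vamp4, of the trans-Golgi, 21.1 ± 4.6 and 17.9 ± 8.0 CPM, and Vamp7, of lysosomes, 10.1 ± 2.7 and 8.805 ± 2.2 CPM.

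Of the 4 Qa-SNAREs, 1 was fitted higher in HET and 3 lower. Stx5a (ENSMUSG00000010110, chromosome 19, 8741413 to 8756069, plus strand), the Qa-SNARE of the Golgi, measured 56.7, 57.6, 48.6 and 57.0 CPM in WT, against 55.3, 61.7 and 64.9 CPM in HET. The groups overlapped through HET 1, and the log2 fold change was 0.14 (SE 0.19). Stx7, of late endosomes (ENSMUSG00000019998, chromosome 10, 24149302 to 24190222, plus strand), measured 50.8, 107, 45.6 and 67.1 CPM in WT, against 62.3, 33.2 and 32.7 CPM in HET. HET 2 and 3 lay below all WT libraries and HET 1 among them, with a log2 fold change of -0.66 (SE 0.38, unadjusted p = 0.119 in edgeR's quasi-likelihood test) that was -0.35 without WT 2. Stx4a, of the plasma membrane, measured 54.2 ± 11.2 and 44.2 ± 6.2 CPM, and Stx18, of the ER, 12.0 ± 3.6 and 9.02 ± 2.5 CPM.

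The Qb-, Qc- and Qbc-SNAREs held 2 higher and 4 lower fitted values. Gosr1 (ENSMUSG00000010392, chromosome 11, 76726602 to 76763579, minus strand), a Qb-SNARE of the Golgi, measured 29.2, 27.4, 21.9 and 29.8 CPM in WT, against 17.7, 24.5 and 21.3 CPM in HET. WT 3 lay among the HET libraries, and the log2 fold change was -0.35 (SE 0.25). With an offset for effective length in each library it was -0.91 (unadjusted p = 0.0238, adjusted p = 0.9998 in edgeR's quasi-likelihood test). Gosr2 (ENSMUSG00000020946, chromosome 11, 103676849 to 103697898, minus strand), the Qb-SNARE that pairs with Stx5a at the cis-Golgi, measured 65.3, 87.4, 62.8 and 78.7 CPM in WT, against 66.1, 66.8 and 115 CPM in HET. HET 3 alone exceeded the WT range, and the log2 fold change of 0.17 was -0.15 without it. Bet1, a Qc-SNARE of ER to Golgi vesicles, measured 19.6 ± 4.4 and 15.5 ± 1.3 CPM, and Stx6, of the trans-Golgi and endosomes, 20.5 ± 10.2 and 23.3 ± 6.2 CPM. Snap23, the Qbc-SNARE of blood cell secretion, measured 101 ± 15.4 and 97.35 ± 6.1 CPM, and Snap29 31.2 ± 7.5 and 26.9 ± 1.5 CPM.

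**Figure D4:**
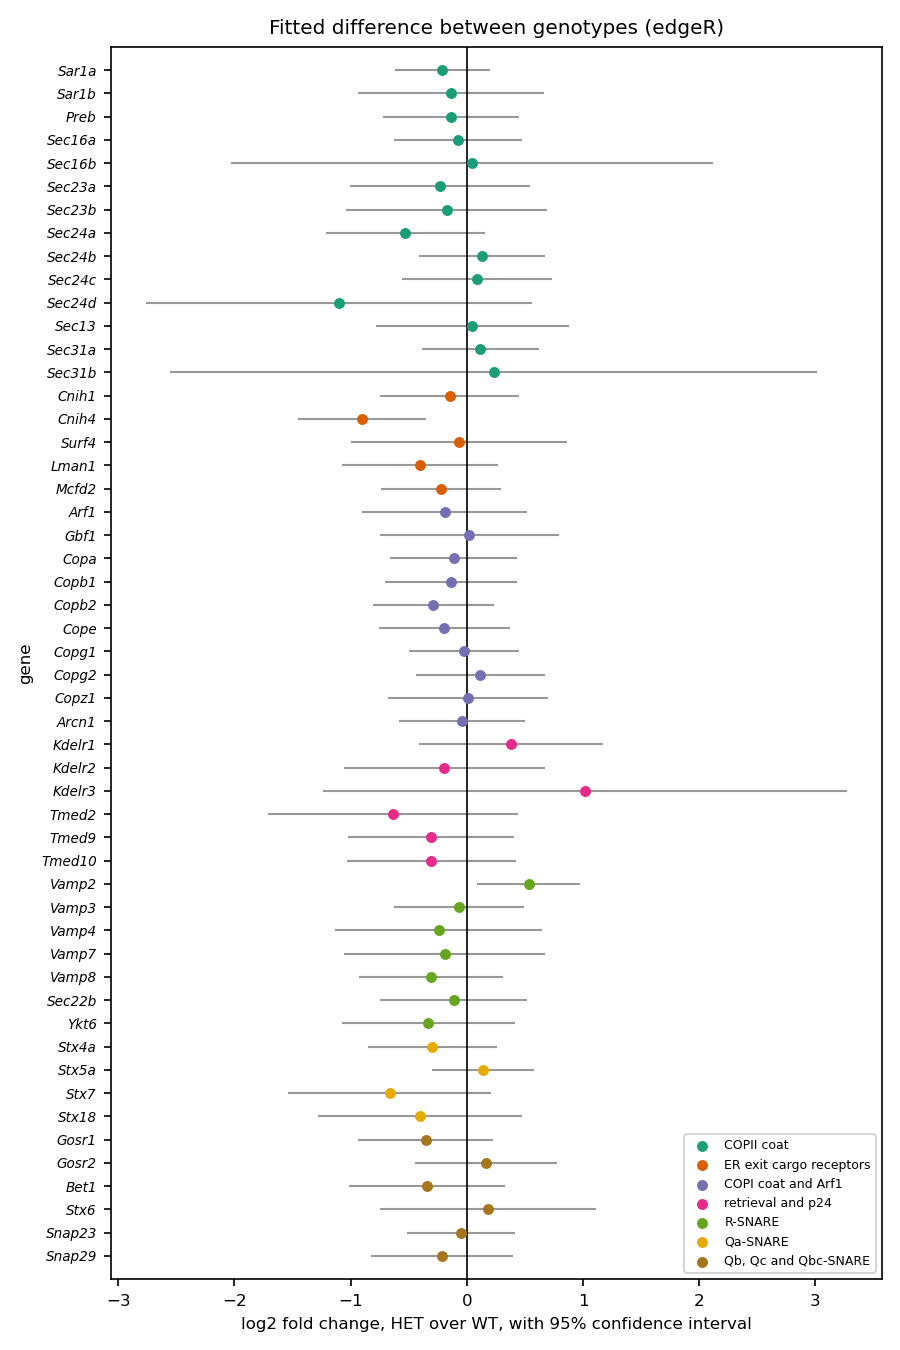
Fitted log2 fold change of HET over WT with 95% confidence intervals from edgeR for the 52 members, coloured by class. The intervals of Cnih4 (-0.90) and Vamp2 (0.53) leave out 0, before any adjustment for the number of genes tested, and 45 of the 52 estimates lie within 0.5 of 0.

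The precision of these libraries set what could be seen. Standard errors of the members' log2 fold changes ran from 0.18 to 1.22 with a median of 0.29, and 45 of 52 fold changes were smaller than 0.5 in size. Overlap does not show that the genotypes were alike. The edgeR p-values weigh each difference against the spread between libraries, which is partly pooled over genes. With 1 library per mouse, spread between mice cannot be told apart from spread due to sorting or amplification.

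Many of these functions are shared by paralogs, and their balance within a library does not depend on how libraries are scaled. Each paralog's share of its family's TPM was compared in 30 two-sided exact permutation tests over 35 splits. At an unadjusted exact permutation p under 0.05 there was 1 share, and no share passed after Benjamini-Hochberg adjustment (smallest adjusted p = 0.343). By TPM the groups of 6 of the 30 shares did not overlap. With 35 splits and 30 tests, at least 18 shares at the smallest p would be needed for any to pass, so the lack of a pass says little. By read counts 3 shares had an exact permutation p under 0.05, Cnih1, Vamp2 and Stx5a, again with none past the adjustment (smallest adjusted p = 0.286). With protein-coding transcripts alone there was 1, Vamp2 (adjusted p = 0.429, exact permutation).

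Several families were led by 1 paralog in all 7 libraries. Sec31a held at least 92.5% of Sec31 and Sec16a at least 95.9% of Sec16 TPM in every library. Sar1a held 74.9% to 87.4% of Sar1, and Sec24c 47.6% to 69.0% of Sec24, ahead of Sec24b at 17.1% to 41.2%. By TPM, Sec23a and Sec23b traded places between libraries, with Sec23a between 25.5% in HET 1 and 63.6% in WT 4. A retained intron of 126 bases in effective length held 23.8% to 82.4% of the Sec23a TPM. Sec23a held 45.5% to 55.0% by reads and 25.3% to 56.7% with protein-coding transcripts alone. With transcripts of at least 500 bases in effective length, chosen after seeing the data, Sec23b led in every library, at 62.5% to 72.1%. Vamp8 held 42.4% to 63.5% of the R-SNARE TPM and Snap23 82.0% to 91.6% of the Snap23 and Snap29 sum.

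The cornichon pair was the family with the 1 share under that p by TPM. Cnih1 held 37.6%, 33.5%, 33.9% and 31.9% of the pair's TPM in WT 1 to WT 4 and 48.1%, 47.5% and 48.3% in HET 1 to 3. The groups did not overlap, and the difference of 13.7 percentage points gave the smallest p that 35 splits allow (two-sided exact permutation p = 0.0286, adjusted p = 0.343). By read counts the shares were 46.8% ± 3.2 (SD, n = 4) and 59.2% ± 6.0 (SD, n = 3), also without overlap. With protein-coding transcripts alone they were 53.1% ± 15.6 and 63.8% ± 23.6 and overlapped (exact permutation p = 0.486), while with transcripts of at least 500 bases in effective length, a choice made after seeing the data, they were 81.2% ± 0.87 and 89.0% ± 3.6 without overlap (exact permutation p = 0.0286, adjusted p = 0.429). This share and the Cnih4 level draw on the same reads and are not independent of one another.

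Vamp2 held 12.1%, 12.4%, 16.7% and 13.3% of the R-SNARE TPM in WT and 16.9%, 25.1% and 18.5% in HET. The groups stood next to one another without overlap, 16.7% in WT 3 against 16.9% in HET 1, with a difference of 6.55 points (exact permutation p = 0.0571, adjusted p = 0.343). By reads the shares were 17.1% ± 2.1 and 25.6% ± 2.7, and with protein-coding transcripts 10.6% ± 1.3 and 17.7% ± 2.9 (exact permutation p = 0.0286 in both). With transcripts of at least 500 bases in effective length, chosen after seeing the data, they were 10.4% ± 0.84 and 17.6% ± 2.6 without overlap (exact permutation p = 0.0286).

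Among the Qa-SNAREs, Stx5a held 37.8%, 29.3%, 24.3% and 32.3% in WT and 53.2%, 41.1% and 41.9% in HET, without overlap (difference 14.4 points, exact permutation p = 0.0571, adjusted p = 0.343). Stx5a has 19 annotated transcripts, and the transcript with the highest mean TPM, Stx5a-212, has an effective length of 129 bases and was listed at 0 in WT 2. By reads the Stx5a share was 29.3% ± 2.7 in WT and 38.8% ± 4.5 in HET. With transcripts of at least 500 bases in effective length, chosen after seeing the data, it was 33.9% ± 1.9 and 42.1% ± 6.0. The groups then overlapped (exact permutation p = 0.0571). In the Qb pair, Gosr1 held 31.2%, 16.9%, 27.5% and 23.0% in WT and 14.2%, 14.6% and 10.05% in HET, without overlap by TPM (exact permutation p = 0.0571), but with overlap by reads at 27.0% ± 3.0 and 21.2% ± 5.6. Sec24a held 7.45%, 5.07%, 5.14% and 4.58% of Sec24 in WT and 3.78%, 3.86% and 4.13% in HET (exact permutation p = 0.0571), likewise without overlap by TPM and with overlap by reads.

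**Figure D5:**
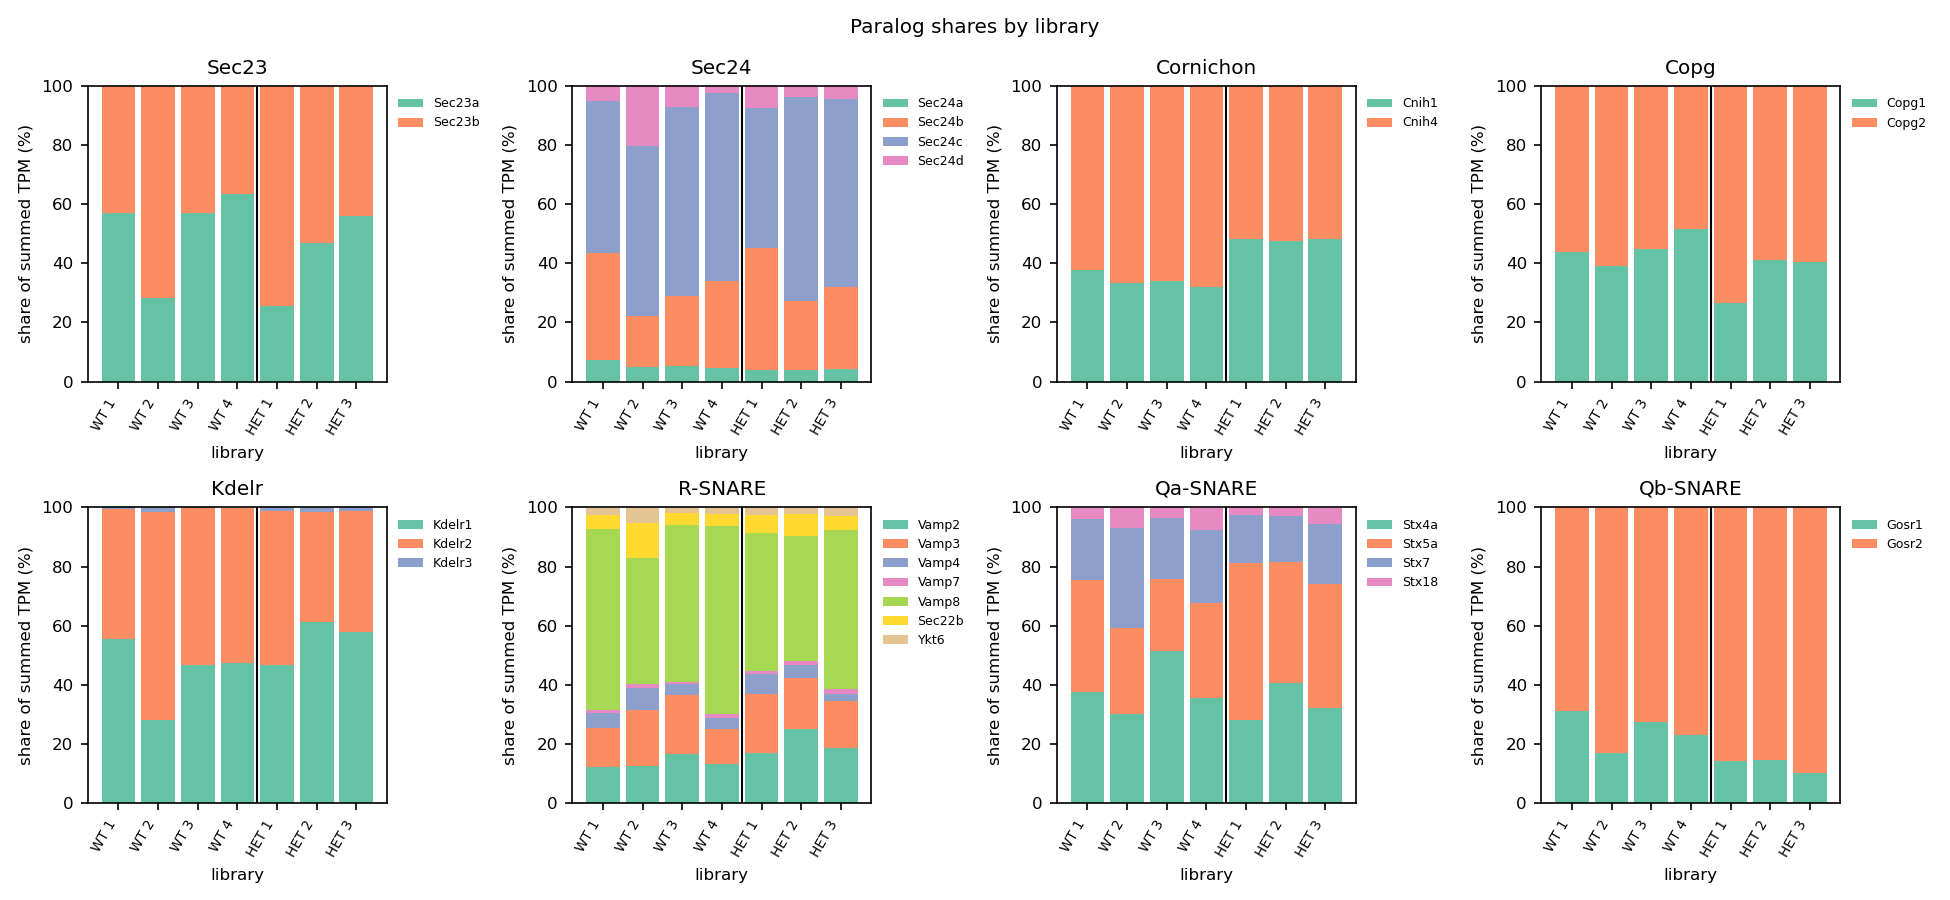
Share of each paralog in its family's summed TPM (percent) in each library, for 8 families; a vertical line divides WT from HET. Cnih1 lies between 31.9% and 37.6% in WT and between 47.5% and 48.3% in HET, while the Sec23 and Copg balances vary as much within a group as between groups.

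Stretches of promoter are shown for the members that hold a sequence known from the unfolded protein response. That program raises secretory genes under ER stress. The search was made because WT 2 was the highest library for 29 of the 52 members. Promoters from RefSeq on GRCm38.p6 matched 45 of 52 members with 53 promoters, and the 250 bases before each start were searched on both strands. The members without an entry were Arcn1, Kdelr2, Lman1, Tmed2, Vamp2, Vamp3 and Vamp7. The 8-base core TGACGTGG was found in 6 of 53 member promoters (11.3%) and in 0.563% of the 32851 promoters in the table. Each stretch is written 5′ to 3′ on the gene's strand, with the core or its reverse complement in capitals and up to 11 bases on each side.
Arf1, chr11:59228228-59228257 (minus strand): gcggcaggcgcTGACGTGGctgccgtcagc
Copb1, chr7:114254690-114254719 (minus strand): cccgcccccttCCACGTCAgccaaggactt
Gbf1, chr19:46152535-46152557 (plus strand): gaggctagttaCCACGTCAgtga
Kdelr3, chr15:79516367-79516396 (plus strand): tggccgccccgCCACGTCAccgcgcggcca
Sec16b, chr1:157506741-157506770 (plus strand): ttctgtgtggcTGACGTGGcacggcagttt
Sec24d, chr3:123267459-123267488 (plus strand): gcccgggcgccTGACGTGGcactagcaacc
In GENCODE M21, whose start sites differ from RefSeq, the stretch of Kdelr3 lies outside any exon, that of Copb1 lies in part in an exon of the same gene, and the other 4 lie in full within an exon of the same gene.

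The highest library of the 7 was WT 2 for 5 of these 6 genes (Arf1, Copb1, Kdelr3, Sec16b and Sec24d) and HET 3 for Gbf1. Some margins were small: Copb1 stood at 113 CPM in WT 2 and 106 CPM in HET 3. Kdelr3 stood at 1.85 CPM in WT 2 and 1.76 CPM in HET 3, and Sec16b at 3.39 CPM in WT 2 and 2.88 CPM in WT 3. The search was prompted by WT 2, so this count is not a separate result. Across all members WT 2 was highest for 29 of 52, so the 6 genes are described and not set apart. The match describes letters in a window and shows no binding.

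Shorter sequences overlap with this core. TGACGT, a sequence of cyclic AMP response elements that is contained in the core, was found in 14 of 53 member promoters (26.4%, and 6.47% of all), and ACGTG, also contained in it, in 17 (32.1%, and 16.6% of all). The E-box CACGTG, which contains ACGTG, was found in 5 (9.43%, and 6.02% of all), namely Mcfd2, Sar1a, Stx6, Tmed10 and Vamp4. CCAAT was found in 20 (37.7%, and 33.8% of all) and CCACG in 28 (52.8%, and 28.3% of all). The full ER stress response element, which joins these last pair of sequences over 9 free bases, was found in 0 member promoters and 0.113% of all, and its shorter second form in 0 and 0.0304%. The letters of the 8 sequences overlap and promoters of neighbouring genes can share bases, so these counts are not independent.

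The members whose groups stood apart are shown for comparison. For Cnih4 the 150 bases before the RefSeq start hold neither TGACGT nor the E-box. For Sar1a the 30 bases before the start hold an E-box, in capitals.
Cnih4, chr1:181150781-181150930 (plus strand): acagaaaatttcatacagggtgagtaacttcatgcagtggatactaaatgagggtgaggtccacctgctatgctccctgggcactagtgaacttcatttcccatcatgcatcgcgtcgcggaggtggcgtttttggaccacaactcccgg
Sar1a, chr10:61680255-61680284 (plus strand): cgtgacgcgtcgagggggcggggCACGTGc
The stretch of Cnih4 lies inside the gene as GENCODE M21 draws it, outside its exons.

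Beyond the members, 128 other genes of the same pathway were listed, of which 120 were tested. The fitted values were higher in HET for 47 and lower for 73 (median log2 fold change -0.07), 0 passed the test, and 2 had an unadjusted p under 0.05 in edgeR's quasi-likelihood test, both lower, beside 1.80% of all genes, a share near that of the list. The groups of 3 of the 120 did not overlap, beside 3.57% of all genes. Without WT 2, 65 of 120 were higher. By list, 4 of 17 regulators of COPII and ER exit, 5 of 15 COPI and Arf regulators, 4 of 12 other p24 and ERGIC proteins, 17 of 32 tethers, 15 of 32 other SNAREs and their cofactors and 2 of 12 Rab GTPases had higher values. Without WT 2 these counts were 7, 9, 7, 20, 17 and 5, in the same order.

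Ier3ip1, a small ER membrane protein linked to ER exit, measured 31.3, 33.4, 23.2 and 26.8 CPM in WT 1 to WT 4, against 19.3, 10.7 and 13.2 CPM in HET 1 to 3. The groups did not overlap (log2 fold change -0.99, SE 0.30, edgeR unadjusted p = 0.0108, adjusted p = 0.9998). Rab18, a GTPase of the ER and lipid droplets, measured 63.4, 46.0, 51.9 and 42.4 CPM in WT, against 37.8, 30.9 and 31.9 CPM in HET. Its groups did not overlap either (log2 fold change -0.60, SE 0.23, edgeR unadjusted p = 0.0312, adjusted p = 0.9998). Rab33b, a Golgi GTPase, overlapped at 22.8 ± 5.0 CPM (SD, n = 4) and 14.98 ± 3.7 CPM (SD, n = 3). On the higher side, Rint1, a tether of Golgi to ER vesicles, measured 44.4 ± 13.6 and 62.2 ± 4.2 CPM, without overlap and with WT 2 lowest at 24.3 CPM. Klhl12, which directs ubiquitin to SEC31, measured 19.4 ± 10.1 and 30.3 ± 13.9 CPM, and Rab43, a Golgi GTPase, 62.0 ± 11.3 and 76.0 ± 5.1 CPM, both with overlap.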

How the data were processed

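LT-HSCs were sorted straight into lysis buffer, and their RNA was purified, amplified with an Ovation V2 kit and made into TruSeq V2 libraries, per the labels' protocols. The deposited tables hold, for each transcript, estimated counts of reads and an effective length, made by the authors with Salmon 0.12.0 per the submitters' processing notes, which also name mm10 and GRCm38.p6. TPM values (per transcript, scaled by length and depth) were deposited in the same tables. The transcript release, the strand setting and the bias options were not stated there, so reads of overlapping antisense genes, and the split among paralogs and transcripts, are uncertain.

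Of 136288 transcripts, 136176 were matched by identifier to GENCODE M21, and the remaining 112 (at most 0.0622% of a library's reads) were left out. Estimated counts were summed per gene and rounded, filterByExpr (count 10, total 15) removed genes of low counts, and 20314 of 53458 were tested. HET and WT were tested by edgeR 4.0.16 with its quasi-likelihood method (TMM scaling, robust fit, no covariate, Benjamini-Hochberg adjustment over all genes, threshold 0.05) in R 4.3.3, and intervals are 95% confidence intervals of that fit. Fold changes are HET over WT. CPM are on the TMM scale. Paralog shares were computed from TPM per library and compared by two-sided exact permutation with NumPy 2.4.6. SciPy 1.17.1 gave the quantiles of the intervals. The procedure was tested on simulated data. The deposited counts carry no molecular identifiers, so floors cover counting error only.

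Values in every library were given for up to 5 members per direction with the smallest unadjusted p, for members of the paralog families with the 4 smallest permutation p (5 families, because of ties), and for up to 3 other pathway genes per direction of at least 5 CPM; values per library of further members (Sar1a, Arf1, Tmed2, Vamp8) were added after they were seen. The members and gene lists were chosen with earlier results of these data known. Of the listed pathway genes, Ctage5 was not matched by name. Alternatives were RLE scaling, no filter, a stricter filter (10 counts on average and 1 CPM in 3 libraries), a length offset, DESeq2 1.42.0, voom with quality weights in limma 3.58.1, a block on the replicate number, leaving out each library or a pair of libraries, shares from read counts or protein-coding transcripts, and, chosen after seeing the data, shares from transcripts of at least 500 bases in effective length.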

Additional observations from a re-analysis of the deposited data

Results flagged for a closer look

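Gaps within the 4 WT libraries were large relative to their range for 5 of 52 members in CPM and for 1 of 30 paralog shares (Dixon's ratio above 0.829). Chance alone marks about 1 in 20 groups by this measure. In WT 2, Sec13 stood at 32.9 CPM where the other WT libraries held 15.01 to 15.97 CPM, and Surf4 at 153 CPM where they held 52.7 to 69.8 CPM. In the same library Arf1 stood at 305 CPM (others 150 to 157 CPM) and Copz1 at 122 CPM (others 63.1 to 65.7 CPM). The share of Sec22b among the R-SNAREs was 11.8% in WT 2 and 4.11% to 4.64% in the other WT libraries. In WT 3, Stx5a stood at 48.6 CPM, below the 56.7 to 57.6 CPM of the rest. WT 2 thus held 4 of the 5 members and the 1 share, and it is the library with the lowest stem cell and the highest neutrophil marker sums. Whether cell content accounts for these gaps was not tested.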

How the results depend on the processing

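No member passed the adjusted threshold under any scaling, filter, tool or left-out library that was run. Over all genes, edgeR called 0 and DESeq2 9, and leaving out 1 library gave 0 to 1 calls (1 without WT 4). The count of members with higher fitted values, 15 with all libraries, ran from 5 (without HET 3) to 24 (without WT 2) and was 23 without WT 2 and HET 1. Members whose groups did not overlap numbered 3 (3.57% of all genes), 3 to 9 with 1 library left out, among them 9 without WT 3 (6.62% of all genes) and 7 without WT 2 (10.1%), and 10 without WT 2 and HET 1 (18.2%), where fewer libraries have to be in order. Kdelr1 (0.38 in log2) ranged from -0.062 without HET 3 to 0.55 without WT 1, and Gosr2 (0.17) from -0.15 without HET 3 to 0.29 without HET 1, and was 0.40 without WT 2 and HET 1. Shares with an unadjusted exact permutation p under 0.05 numbered 1 by TPM, 3 by read counts and 2 with transcripts of at least 500 bases. With 1 library left out, a permutation of shares cannot reach 0.05, and no p was given. Cnih4 and Vamp2 kept their direction under every alternative run, but not their unadjusted edgeR p under 0.05. For Vamp2 it was 0.191 with the length offset, 0.121 with the replicate block, 0.0571 with no filter and 0.0505 to 0.0743 without WT 1, WT 4, HET 2 or HET 3, and for Cnih4 0.0592 with the replicate block. Members with an unadjusted p under 0.05 numbered 2 in the main fit (1.80% of all genes) and 0 with the block (0.684%). They numbered 4 with voom and quality weights (4.57%), and 1 to 3 under the other settings (1.53% to 4.84%). After removal of group means, same-numbered libraries had correlations of -0.32, -0.16 and 0.002, beside 0.39 for WT 2 and HET 1. Libraries that differ in cell markers cannot show in this way whether same-numbered mice were paired. With the replicate block 0 genes were called, 13 of 52 members were higher and the member median was -0.19. Read depth limits Kdelr3, which lay under the floor in WT 3.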
